A study of Mus musculus with 16 samples.

Results

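The 10 genes described here were the FoxO transcription factors Foxo1, Foxo3 and Foxo4, the receptors Insr and Igf1r, the receptor substrates Irs1 and Irs2, the FoxO-regulated cyclin Ccng2 and the kinases Sgk1 and Sgk3. They were picked by gene symbol from the 19505 genes with a named probe set, and each of the 10 had 1 probe set. Values are log2 signals, so a difference of 1 is a 2-fold change. Expression was measured on arrays in BU.MPT, a mouse proximal tubular cell line, so that all samples come from 1 line. All cells were grown at 39 °C in the absence of interferon gamma, and 700 pg of RNA went into each labelling. Control cells stayed in 21% oxygen, in medium with 4.5 g/L glucose and 10% serum. Hypoxia and reperfusion (H/R) meant 3 h in medium lacking serum and glucose at about 1% oxygen, before 1 h of reperfusion in normal culture with both restored. Cells named control+B12 and H/R+B12 were handled likewise with 0.3 µM cyanocobalamin, a form of vitamin B12. The free-text descriptions of replicates 2, 3 and 4 of the B12 groups read B13, B14 and B15, and these samples were grouped by their titles. Each of the 4 groups had 4 arrays, which limits the precision, and the labels do not say whether replicates were separate cultures, so p-values measure the spread between these samples only. Oxygen, glucose and serum changed together in H/R and cannot be told apart.

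Insulin and insulin-like growth factor 1 bind the receptors encoded by Insr and Igf1r, which phosphorylate the docking proteins Irs1 and Irs2 and so switch on PI3 kinase and the kinase AKT. AKT and the SGK kinases phosphorylate FoxO factors, which then leave the nucleus. When the signal is low, FoxO factors stay in the nucleus and turn on genes of growth arrest, stress resistance and fasting metabolism, in some tissues including Irs2, Insr and Ccng2. In the kidney this pathway is known for tubular glucose handling and for sodium transport, in which Sgk1 takes part. The arrays measured transcripts, not phosphorylation or location of the proteins.

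The array medians of all 16 arrays lay between 5.21 and 5.37, and the medians of the negative control features between 5.72 and 6.23. The array medians were lower after H/R, at 5.24 to 5.29 against 5.31 to 5.36 in control. With B12 they were 5.215 to 5.282 after H/R against 5.284 to 5.375 in control+B12. Arrays of the same group correlated at 0.990 or more. Of 15 measured proximal tubule markers 11 lay below the array's negative control median on all 16 arrays, among them the endocytic receptors Lrp2 and Cubn, the glucose transporter Slc5a2 and the transcription factor Hnf4a. The kidney factors Pax8 (mean 15.97) and Pax2 (14.58), cadherin Cdh16 (14.64) and the water channel Aqp1 (13.88) lay well above it. Of 18 markers of distal nephron, fibroblasts, endothelium and leukocytes 16 lay below it on all arrays, so that the defining markers of other cells were mostly undetected. By limma 0 of the 18 passed in H/R against control (2 at an unadjusted p under 0.05) and 1 passed with B12 in both arms, the leukocyte gene Ptprc, which lay below the negative controls on all arrays. Of 5 epithelial markers 2 rose after H/R, the keratins Krt18 (0.82 and, with B12, 1.43) and Krt19 (2.70 and 2.83, below background on 8 arrays). Krt8 (0.27 and 0.32), Cdh1 (0.17 and 0.06) and Epcam (-0.13 and -0.50, below background on all arrays) did not pass. Of the genes listed as proximal tubule markers, the water channel Aqp1 (-0.79 and -0.87) and the kidney factor Pax2 (-0.66 and -0.81) fell. Pax8 (0.18 and 0.06) and Cdh16 (-0.24 and -0.16), also well above background, did not pass. The part of these markers in the results was not tested. In such bulk RNA fewer cells of a type and less RNA per cell cannot be told apart.

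The receptor substrates Irs1 and Irs2 and the cyclin Ccng2 are shown first by the DNA just before their start sites, because Irs1 and Irs2 differed in opposite directions after H/R while Ccng2 passed no test. The windows hold the 250 bases before the RefSeq start, build GRCm38.p6, written 5′ to 3′ on the gene's strand. Capitals mark CACGTG (the E-box, which also holds ACGTG on both strands) and TGTTTTG (letters of the insulin response element of FoxO target genes, in Ccng2 on the opposite strand as CAAAACA). The windows are chr1:82291440-82291689 on the minus strand for Irs1, chr8:11008930-11009179 on the minus strand for Irs2 and chr5:93267323-93267572 on the plus strand for Ccng2.
Irs1: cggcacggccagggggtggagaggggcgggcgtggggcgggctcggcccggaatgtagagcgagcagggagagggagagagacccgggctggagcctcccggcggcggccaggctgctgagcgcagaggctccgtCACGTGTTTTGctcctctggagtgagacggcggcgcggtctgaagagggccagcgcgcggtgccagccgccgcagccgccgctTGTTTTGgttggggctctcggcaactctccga
Irs2: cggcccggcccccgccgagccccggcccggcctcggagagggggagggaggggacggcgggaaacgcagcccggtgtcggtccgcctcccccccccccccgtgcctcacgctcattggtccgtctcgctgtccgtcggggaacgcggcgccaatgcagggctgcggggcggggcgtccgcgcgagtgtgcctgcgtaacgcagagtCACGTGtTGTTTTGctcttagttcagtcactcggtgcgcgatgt
Ccng2: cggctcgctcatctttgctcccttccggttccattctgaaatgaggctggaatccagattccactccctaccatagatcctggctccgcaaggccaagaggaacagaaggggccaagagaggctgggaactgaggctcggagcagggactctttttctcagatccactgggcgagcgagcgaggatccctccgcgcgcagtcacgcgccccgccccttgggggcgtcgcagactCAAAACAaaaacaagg

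Both Irs windows held CACGTG followed closely by TGTTTTG. In Irs1 the matches began 115 and 111 bases before the start, sharing the letters TG, with a further TGTTTTG at 32 bases. In Irs2 they began 44 and 37 bases before the start. Over all 32851 RefSeq windows of the same length, 6.02% held CACGTG, 5.56% held TGTTTTG on either strand and 0.295% held both. These motifs were chosen with the sequences in view, so the shares are descriptions. The forkhead consensus GTAAACA (3.17% of all windows) and the cyclic AMP element TGACGTCA (1.55%) had no match in the 12 windows of the 7 genes listed. ACGTG, a form of the core of the hypoxia response element (16.6% of all windows), matched only within CACGTG, in Irs1, Irs2 and 1 of 6 Sgk1 windows. The other form, GCGTG, was not searched for, so these matches do not show which windows lack such a core. TGTTTTG matched only in Irs1, Irs2 and Ccng2, and the windows of Foxo1, Foxo3 and Igf1r held none of the motifs searched for. Other spellings of the insulin response element and of the forkhead site were not searched for. Foxo4, Insr and Sgk3 had no entry. A match is a string of letters and not a measured binding site.

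After H/R without B12, Foxo3, Irs1, Foxo1 and Igf1r rose and Sgk3 fell. With B12 in both arms Foxo3, Irs1 and Foxo1 rose, and Irs2 and Sgk3 fell. That makes 5 of 10 genes past the test in each comparison (limma, adjusted p under 0.05 over 22206 probe sets), beside 17.6% of all probe sets without B12 and 18.7% with it. The groups did not overlap in 5 of 10 genes in either comparison, beside 20.9% and 21.5% of all probe sets. These shares include many probe sets at or below background, while the 10 genes lay between percentiles 53.2 and 98.7 of mean signal. With the dimmest 25% left out, 6 of 10 genes passed without B12, beside 4297 of 16654 probe sets. With B12 it was 6 of 10, beside 4512 of 16654. The median difference over the 10 genes was 0.29 without B12 and 0.09 with it, against -0.02 and -0.04 over all probe sets. Insr and Ccng2 did not pass in either comparison, nor did Foxo4 and Sgk1, which were the dimmest of the 10 and lay near the negative controls.

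**Figure D1:**
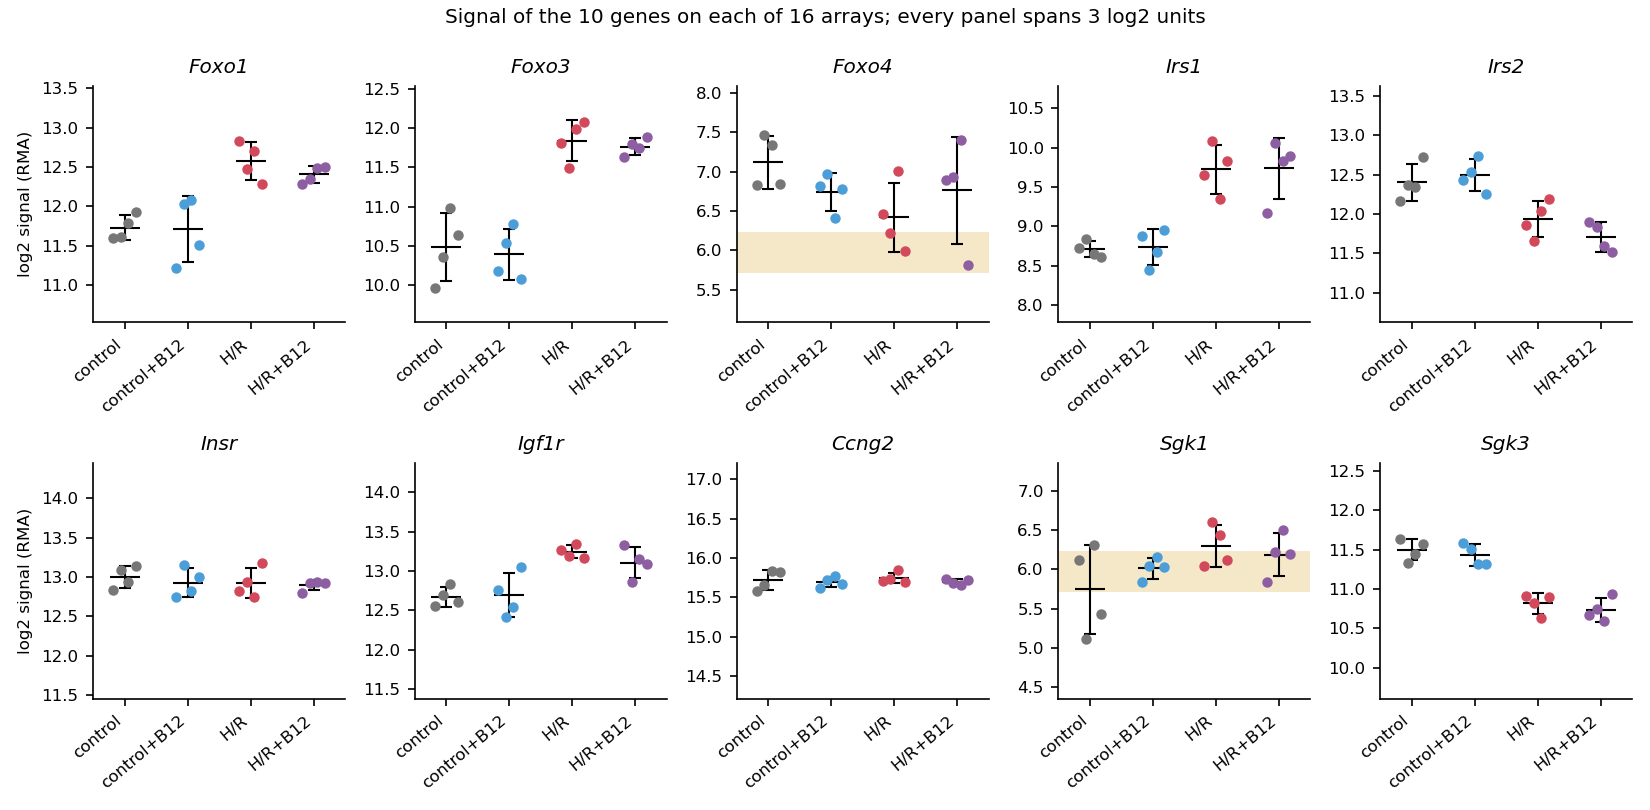
Log2 signal of each of the 10 genes (vertical axis) on the 16 arrays by group (horizontal axis). Points are arrays, and bars give the mean and SD of 4. The shaded band in the Foxo4 and Sgk1 panels spans the negative control medians, 5.72 to 6.23. All 8 H/R arrays lie above all 8 control arrays for Foxo1, Foxo3 and Irs1 and below them for Sgk3.

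Foxo3, the FoxO factor best known for control of cell survival and autophagy genes, had the largest change of the 10. Its signals in replicates 1 to 4 were 9.97, 10.36, 10.98 and 10.64 in control and 11.80, 11.49, 11.99 and 12.08 in H/R. With B12 they were 10.18, 10.54, 10.78 and 10.08 in control+B12 and 11.63, 11.79, 11.75 and 11.88 in H/R+B12. Every H/R array lay above every control array, and the control arrays were more spread (SD 0.43) than those of H/R+B12 (SD 0.10). Foxo3 rose by 1.35 ± 0.21 (SE, n = 4 against 4), a 2.55-fold change (95% interval 1.88 to 3.47), with adjusted p = 0.000229. With B12 the rise was 1.37 ± 0.21, a 2.58-fold change (adjusted p = 0.000198).

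Foxo1, the FoxO factor that carries much of insulin's effect on liver glucose output, rose less. Its signals were 11.59, 11.61, 11.78 and 11.93 in control and 12.84, 12.48, 12.70 and 12.29 in H/R. With B12 they were 11.22, 12.03, 12.08 and 11.51 in control+B12 and 12.29, 12.34, 12.49 and 12.51 in H/R+B12. The groups did not overlap, and the control+B12 arrays split into a higher and a lower pair. Foxo1 rose by 0.85 ± 0.19, a 1.80-fold change (95% interval 1.37 to 2.36, adjusted p = 0.00397), and with B12 by 0.70 ± 0.19 (adjusted p = 0.0140). Leaving out control+B12 1, the lowest of the 16 arrays for Foxo1, gave 0.53 with B12, which did not pass (adjusted p = 0.0506).

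Foxo4, the X-linked FoxO factor, gave a dim signal. Its arrays read 6.83, 7.46, 7.34 and 6.84 in control, 6.46, 6.22, 7.01 and 5.99 in H/R, 6.81, 6.97, 6.40 and 6.78 in control+B12, and 6.90, 6.93, 7.41 and 5.81 in H/R+B12. The groups overlapped, and H/R+B12 4 lay below its own negative control median. The differences were -0.70 ± 0.29 without B12 (adjusted p = 0.124) and 0.02 ± 0.29 with it (0.981), and neither passed. With H/R+B12 4 left out of the fit, the first passed at the same size (adjusted p = 0.0447).

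Of the receptor substrates, Irs1 rose in both comparisons and Irs2 fell in the comparison with B12. The Irs1 arrays read 8.73, 8.84, 8.65 and 8.61 in control and 9.65, 10.08, 9.34 and 9.82 in H/R. With B12 they read 8.88, 8.44, 8.67 and 8.95, and then 9.16, 10.05, 9.83 and 9.89 after H/R. All H/R arrays lay above all control arrays, with H/R+B12 1 the lowest of them. Irs1 rose by 1.02 ± 0.20, a 2.02-fold change (95% interval 1.52 to 2.70, adjusted p = 0.00145), and with B12 by 1.00 ± 0.20 (adjusted p = 0.00161).

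Irs2, whose promoter window above holds the same pair of motifs as that of Irs1, read 12.16, 12.37, 12.34 and 12.73 in control and 11.86, 11.66, 12.04 and 12.19 in H/R. With B12 the arrays read 12.43, 12.54, 12.74 and 12.26 in control+B12 and 11.90, 11.84, 11.59 and 11.51 in H/R+B12. Without B12 the groups overlapped by a small margin, since H/R 4 lay just above control 1, and with B12 they were apart. The difference without B12 was -0.46 ± 0.16 (adjusted p = 0.0639), and with B12 Irs2 fell by 0.78 ± 0.16 (adjusted p = 0.00272). The difference without B12 passed when control 1 (-0.54, adjusted p = 0.0451) or H/R 4 (-0.55, 0.0439) was left out. Passing in 1 arm only does not show that B12 altered the response: the interaction was -0.32 (95% interval -0.81 to 0.18, adjusted p = 0.987).

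Insr, the insulin receptor, had no difference past the test. Its 4 arrays ranged from 12.83 to 13.13 in control, 12.74 to 13.18 in H/R, 12.74 to 13.15 in control+B12 and 12.80 to 12.94 in H/R+B12. These ranges lay almost on top of each other, and the differences were -0.08 (95% interval -0.36 to 0.21, adjusted p = 0.800) without B12 and -0.03 (-0.32 to 0.26, 0.917) with it. A change of 2-fold lay outside both intervals.

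Igf1r, the related receptor for insulin-like growth factor 1, read 12.56, 12.70, 12.84 and 12.60 in control and 13.27, 13.19, 13.35 and 13.17 in H/R. With B12 it read 12.76, 12.41, 12.54 and 13.05 in control+B12 and 13.33, 12.86, 13.16 and 13.09 in H/R+B12. The groups were apart without B12 and overlapped with it, through the high array control+B12 4 and the low array H/R+B12 2. Igf1r rose by 0.57 ± 0.15 (1.49-fold, adjusted p = 0.0131), and the difference with B12 was 0.42 ± 0.15 (adjusted p = 0.0653). Without control+B12 4 it was 0.54 (adjusted p = 0.0188) and without H/R+B12 2 it was 0.50 (0.0428), both past the test, as it was with arrays centred on their medians (0.50, 0.0357). The interaction was -0.15 (95% interval -0.60 to 0.30, adjusted p = 0.987).

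Sgk3, an SGK kinase that is held on endosomes by its lipid-binding domain, read 11.63, 11.33, 11.45 and 11.57 in control and 10.92, 10.82, 10.63 and 10.90 in H/R. With B12 it read 11.59, 11.52, 11.32 and 11.31 in control+B12 and 10.66, 10.75, 10.59 and 10.94 in H/R+B12. No H/R array, with or without B12, reached the level of any control array. Sgk3 fell by 0.68 ± 0.13, a 1.60-fold decrease (adjusted p = 0.00134), and with B12 by 0.70 ± 0.13 (adjusted p = 0.00108).

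Sgk1, the steroid- and stress-inducible kinase that raises sodium channel number in the distal nephron, was close to background. Its arrays read 6.12, 5.11, 6.31 and 5.43 in control and 6.04, 6.61, 6.44 and 6.12 in H/R. With B12 they read 5.84, 6.04, 6.16 and 6.02, and then 5.84, 6.22, 6.50 and 6.20 after H/R. Of the 4 arrays per group, 2 in control and 1 in each of the other groups lay below their own negative control median, so the sizes of its differences are uncertain. These were 0.56 ± 0.23 (adjusted p = 0.125) without B12 and 0.17 ± 0.23 (0.699) with it. The first passed without control 3 (0.74, adjusted p = 0.0368) and after quantile normalization (0.69, 0.0471).

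Ccng2, an unusual cyclin linked to growth arrest and a textbook FoxO target, was the brightest of the 10 probe sets and passed neither test. It ranged from 15.58 to 15.84 in control, 15.70 to 15.85 in H/R, 15.61 to 15.77 in control+B12 and 15.66 to 15.73 in H/R+B12. The differences were 0.02 (95% interval -0.21 to 0.26, adjusted p = 0.930) and 0.01 (-0.23 to 0.24, 0.985). Both intervals leave out a 2-fold change.

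**Figure D2:**
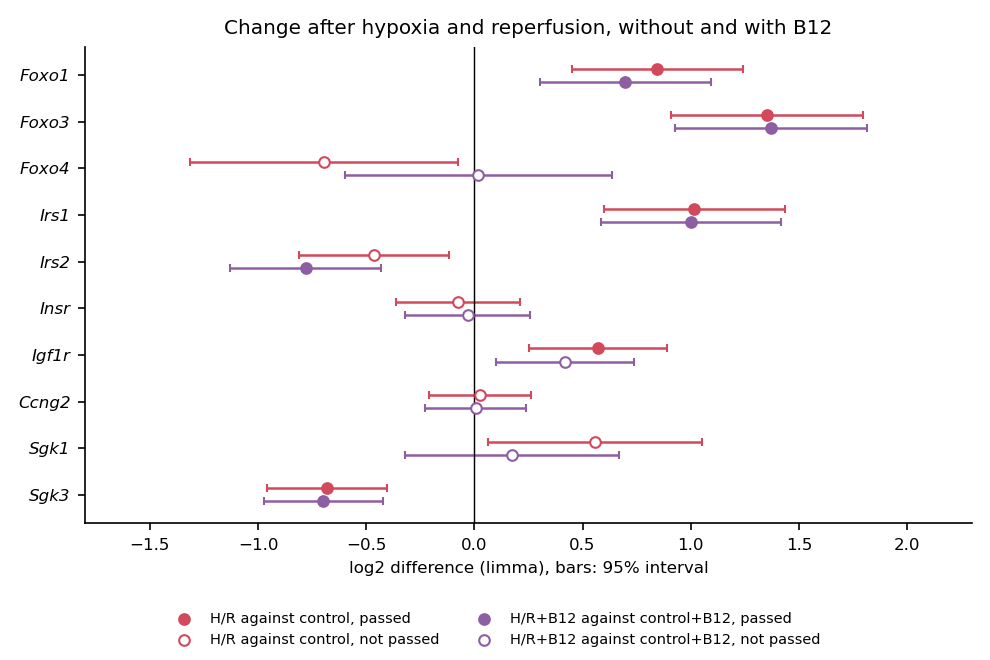
Log2 difference after H/R (horizontal axis) for the 10 genes, without B12 (red) and with B12 in both arms (purple), from limma. Bars are 95% intervals, and filled points passed the adjusted threshold of 0.05. Foxo1, Foxo3, Irs1 and Igf1r lie right of 0 and Irs2 and Sgk3 left of it in both comparisons, while the intervals of Insr and Ccng2 span 0.

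Averaged over the arms without and with B12 (8 arrays against 8, a comparison added after the values of both arms were seen), 4 genes rose and 2 fell, beside 27.2% of all probe sets. They were Foxo3 (1.36 ± 0.15), Irs1 (1.01 ± 0.14), Foxo1 (0.77 ± 0.13), Igf1r (0.50 ± 0.11), Sgk3 (-0.69 ± 0.09) and Irs2 (-0.62 ± 0.12), with adjusted p-values from 2.57e-06 for Foxo3 to 0.00178 for Igf1r. In Irs2 and in Igf1r, 1 of the 8 H/R arrays fell within the range of the 8 control arrays and the other 7 lay past it. Foxo4 (-0.34, adjusted p = 0.276), Sgk1 (0.36, 0.125), Insr (-0.05, 0.762) and Ccng2 (0.01, 0.928) did not pass.

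The signals of genes of the same role changed unequally. For 6 pairs the log2 ratio between both genes was taken on each array and compared between H/R and control arrays within each B12 condition, by a two-sided exact permutation test with p adjusted over the 6 pairs. The ratio of Irs2 to Irs1 had a large change, -1.63 ± 0.21 (SE, 8 against 8 arrays), which was -1.48 without and -1.78 with B12 (exact p = 0.000408, the smallest this test can give, adjusted p = 0.00122). On single arrays this log2 ratio ranged from 3.31 to 4.12 in the control groups and from 1.58 to 2.74 in the H/R groups.

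Among the FoxO factors, the ratio of Foxo3 to Foxo1 rose by 0.59 ± 0.14 (exact p = 0.00122, adjusted p = 0.00184), so the Foxo3 signal gained more than that of Foxo1. The ratios of Foxo3 to Foxo4 (1.70 ± 0.27, adjusted p = 0.00163) and of Foxo1 to Foxo4 (1.11 ± 0.26, adjusted p = 0.00245) rose too by the exact permutation test, with sizes that are uncertain because Foxo4 was dim. Between the receptors, the ratio of Insr to Igf1r changed by -0.55 ± 0.14 (exact permutation, adjusted p = 0.00196). The ratio of Sgk1 to Sgk3 changed by 1.05 ± 0.19 (exact permutation, adjusted p = 0.00122), again with Sgk1 near background. A ratio within an array shows unequal change in signal and not which gene stayed constant. Whether the probe sets of a pair respond alike to transcript amount was not tested.

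**Figure D3:**
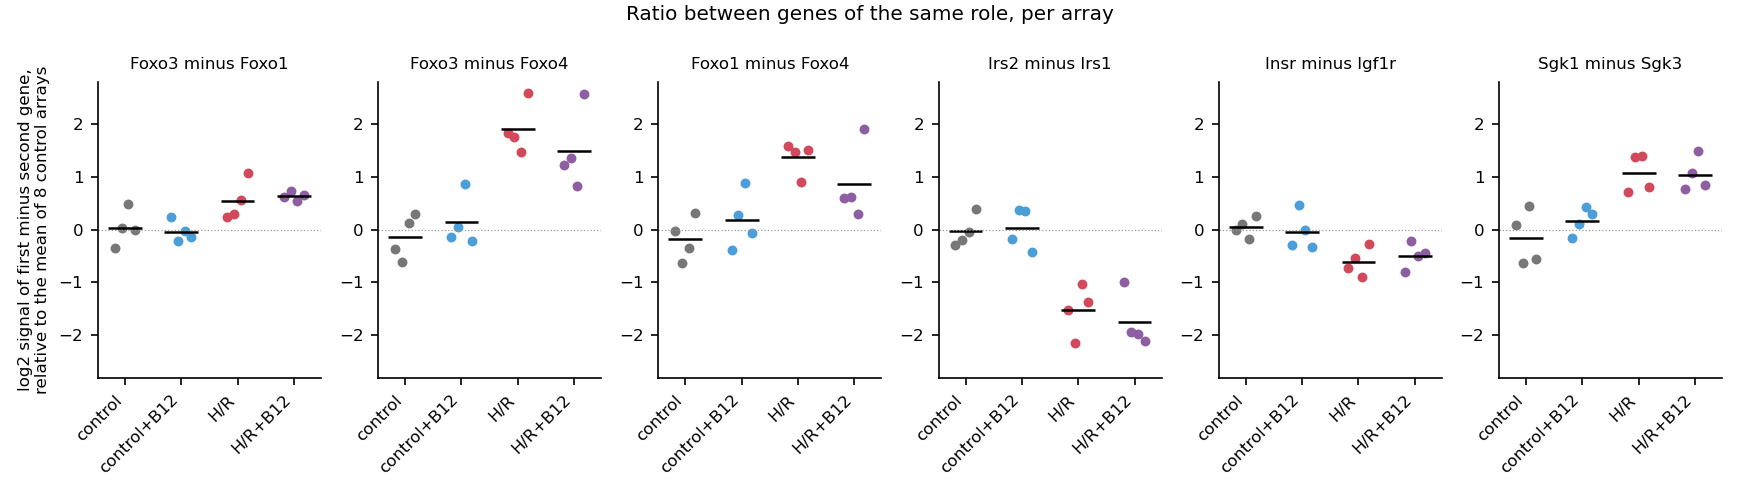
Log2 ratio between the genes of 6 pairs on each array (vertical axis, relative to the mean of the 8 control arrays of both kinds), by group. Points are arrays and lines are means of 4. The Irs2 to Irs1 ratio of all 8 H/R arrays lies below that of all 8 control arrays.

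Other genes of the pathway were read from 7 lists of 133 measured genes in all, written with earlier results of these data known, so that their counts are descriptions. In each H/R comparison 28 rose and 19 fell, 35.3% of the 133 beside 17.6% and 18.7% of all probe sets, and the median difference was 0.02 without and 0.08 with B12. Some genes are in more than 1 list, and the shares of all probe sets again include many at or below background. Passing in 1 arm only does not show that B12 altered a response: 0 of the 133 genes passed for the interaction.

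Of 10 ligands and binding proteins 1 rose and 2 fell without B12, and 1 rose and 1 fell with it. The shares of all probe sets past the test were 17.6% and 18.7%. Igfbp5, which binds insulin-like growth factors in the matrix, rose by 1.00 ± 0.25 and with B12 by 1.54 ± 0.25, but all 4 arrays of control and of control+B12 lay below their negative control medians. Igfbp7 was at -0.42 ± 0.12 and -0.44 ± 0.12 (adjusted p = 0.0199 and 0.0132). With arrays centred on their medians it did not pass in either (0.0717 and 0.0579), nor without control 3 (0.0604) or H/R 4 (0.0556) in the first. Igf1, the ligand of Igf1r, was at -0.92 ± 0.29 (adjusted p = 0.0386) and with B12 at 0.31 ± 0.29 (0.551). Its first value did not pass once any 1 of the 8 arrays compared was left out (adjusted p = 0.0521 to 0.107), and its 4 H/R arrays lay below their negative control medians.

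Of 17 receptor adaptors and brakes 3 rose without B12, 2 rose with it, and 0 fell by limma. These counts lie near or below the 17.6% and 18.7% of all probe sets that passed. Socs3, a feedback inhibitor of cytokine and insulin receptors, rose by 2.31 ± 0.32 and 2.60 ± 0.32, from a level at which 3 of 4 control arrays lay below background. The adaptor Sh2b3 rose by 1.16 ± 0.17 and 1.71 ± 0.17 (adjusted p = 0.000117 and 2.68e-06). The docking protein Gab1 was at 0.41 ± 0.13 (adjusted p = 0.0390) and 0.33 ± 0.13 (0.101), and its first value did not pass without control 1, 2 or 3 or without H/R 3 or 4 (adjusted p = 0.0712 to 0.111). With arrays centred on their medians the value with B12 passed (0.0420).

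Of 19 genes of the PI3 kinase and AKT step 5 rose and 5 fell without B12, 6 and 4 with it, and 7 and 3 without B12 when arrays were centred on their medians. Of the 3 regulatory subunits of PI3 kinase in the list, Pik3r1 rose by 1.25 ± 0.14 and 0.88 ± 0.14, and Pik3r3 fell by 1.76 ± 0.19 and 1.65 ± 0.19. Pik3r2, named after its values were seen, fell by 0.71 ± 0.20 (adjusted p = 0.0189) and 0.98 ± 0.20 (0.00207). The AKT-binding pseudokinase Trib3 rose by 2.11 ± 0.26 and 1.88 ± 0.26, with 2 of 4 control arrays below background, and its relative Trib1 rose by 1.99 ± 0.26 and 2.12 ± 0.26. Without B12, the adjusted p was 8.28e-06 for Pik3r3 and 4.29e-05 for Trib1. Akt1, chosen after its values were seen, fell by 0.59 ± 0.12 and 0.41 ± 0.12. Akt2 and Pdpk1 of the same list are likewise named after their values were seen. Without B12, Akt2 did not pass (-0.28 ± 0.16, adjusted p = 0.293) and Pdpk1 rose by 0.52 ± 0.12 (0.00673).

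Of 15 genes of the mTOR branch 4 rose and 0 fell by limma without B12, and 5 rose and 1 fell with it. In both comparisons the genes that rose included Eif4ebp1, the translation brake that mTOR switches off (1.83 ± 0.15 and 2.00 ± 0.15), the stress-induced mTOR inhibitor Ddit4 (1.72 ± 0.19 and 1.64 ± 0.19), the tumour suppressor Tsc1 (1.11 ± 0.14 and 1.06 ± 0.14) and Rictor of the second mTOR complex (0.64 ± 0.14 and 0.57 ± 0.14). With B12 the others past the test, named after their values were seen, were the mTOR activator Rheb (0.35 ± 0.12, adjusted p = 0.0461) and Eif4ebp2, a relative of Eif4ebp1 (-0.47 ± 0.15, 0.0389). With arrays centred on their medians 5 rose and 0 fell with B12 by limma.

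Of 25 FoxO regulators 4 rose and 2 fell without B12 and 4 rose and 4 fell with it. The shares of all probe sets past the test were 17.6% and 18.7%. Among 7 genes of 14-3-3 proteins, which hold phosphorylated FoxO in the cytoplasm, Ywhag rose by 0.97 ± 0.16 and 1.12 ± 0.16, and Ywhab fell by 0.65 ± 0.11 and 0.52 ± 0.11. The other 5, named here after their values were seen, did not pass without B12: Ywhae (-0.09), Ywhah (0.02), Ywhaq (-0.39, adjusted p = 0.0563), Ywhaz (-0.01) and Sfn (0.23). With B12 Sfn passed (1.09 ± 0.26), at a mean signal of 3.69 that is below background. The deubiquitinase Usp7 rose by 0.60 ± 0.13 and 0.72 ± 0.13, and Prkaa1, a catalytic subunit of the energy sensor AMPK, by 0.46 ± 0.12 and 0.54 ± 0.12.

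Of 34 genes described as FoxO targets 10 rose and 7 fell in either comparison, with medians of 0.05 and 0.08. With arrays centred on their medians 4 fell without B12 and 5 with it. The mitophagy receptor Bnip3 changed by 2.23 ± 0.16 and 1.95 ± 0.16, the cell cycle inhibitor Cdkn1a by 1.63 ± 0.12 and 1.50 ± 0.12, and the growth factor receptor inhibitor Errfi1 by 1.90 ± 0.17 and 1.83 ± 0.17, all higher after H/R, beside Eif4ebp1. The 7 that fell without B12 are named after their values were seen. They were Sesn1 (-1.01), Cited2 (-0.70), Rbl2 (-0.68), Klf2 (-0.59, mean signal 3.25, below background), Prdx3 (-0.55), Map1lc3b (-0.53) and Cdkn1b (-0.40). Many of the listed targets also answer to other factors, and the arrays do not say which acted here. The fasting genes Pdk4 (mean over 16 arrays 2.36), Pck1 (3.13), Igfbp1 (3.42) and G6pc (3.62), chosen after their values were seen, lay below the lowest negative control median of 5.72 on average.

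Of 18 SGK relatives and effectors 4 rose and 3 fell without B12, and 3 rose and 2 fell with it. Ndrg1, a substrate of SGK kinases that is also induced by hypoxia, rose by 1.86 ± 0.13 and 1.59 ± 0.13. The clock gene Per1, which responds to steroids, rose by 1.90 ± 0.24 and 2.27 ± 0.24. The ubiquitin ligase Nedd4l, which SGK kinases inhibit, rose by 0.54 ± 0.12 and 0.46 ± 0.12. The steroid-responsive chaperone Fkbp5 fell by 0.85 ± 0.17 without B12 (adjusted p = 0.00157), and with B12 it was at -0.40 ± 0.17 (0.116).

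**Figure D4:**
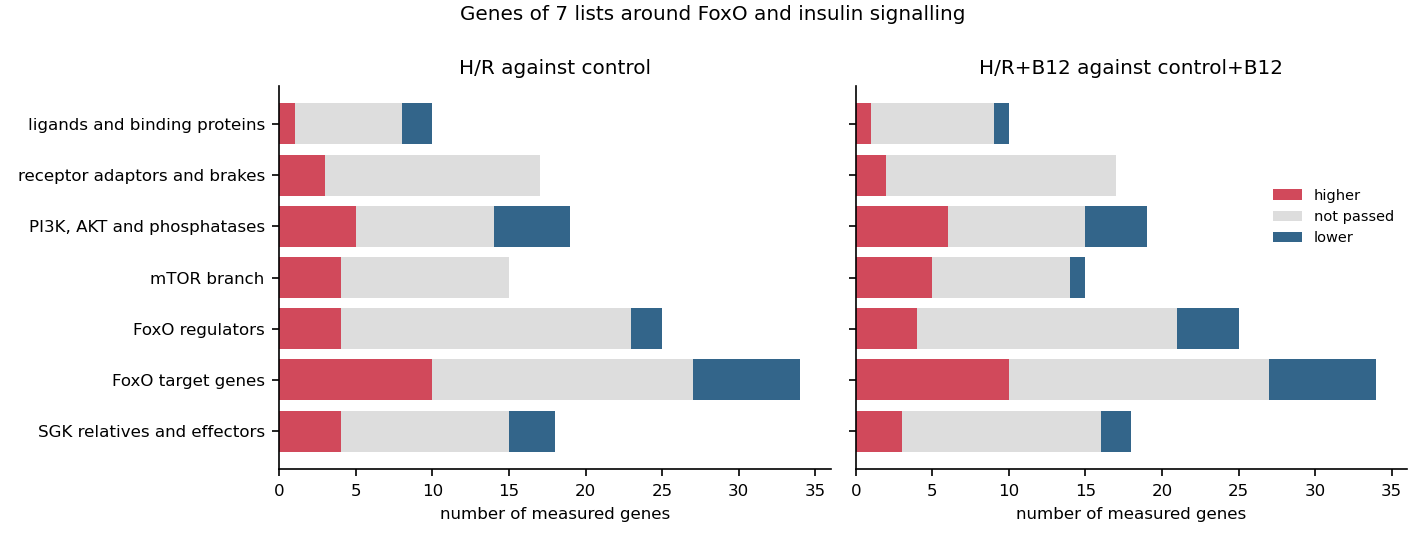
Number of measured genes (horizontal axis) in each of the 7 lists that were higher, lower or not past the adjusted threshold of 0.05 by limma, for H/R without B12 (left) and with B12 in both arms (right). FoxO target genes had 10 higher and 7 lower in both panels.

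For the 6 genes that passed in an H/R comparison, the genes with the most similar course over the 16 arrays were found by the root mean square difference in log2 signal, each gene being centred on its own mean. Foxo3 was nearest to Tle3 (0.18) and Plekhh1 (0.23), where its own root mean square deviation was 0.73. Foxo1 was nearest to Trappc5 (0.18) and Rnf139 (0.18), and Irs1 to Ptpn2 (0.19) and Rest (0.20). Irs2 was nearest to Nlk (0.15) and Praf2 (0.15), Igf1r to Rictor (0.13) and Ube2j1 (0.13), and Sgk3 to Sub1 (0.11) and Sfpq (0.11). These are the closest of 18518 named genes and describe likeness on these arrays only. The genes' own deviations were 0.45 for Foxo1, 0.56 for Irs1, 0.37 for Irs2, 0.30 for Igf1r and 0.37 for Sgk3. A smaller distance in a gene that varied less is therefore not a closer likeness.

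Added B12 was not seen to move any of the 10 genes. In H/R+B12 against H/R, in control+B12 against control, in the interaction and in B12 pooled over control and H/R, 0 of 10 passed by limma, 0 had an unadjusted p under 0.05, and 0% of all probe sets passed. The groups with and without B12 overlapped in all 10 genes in both conditions. In H/R cells the differences ran from -0.23 for Irs2 (95% interval -0.57 to 0.12) to 0.34 for Foxo4 (-0.28 to 0.96), and for the genes that rose they were -0.08 for Foxo3 (-0.52 to 0.37), -0.17 for Foxo1 (-0.56 to 0.23), 0.01 for Irs1 (-0.41 to 0.43) and -0.14 for Igf1r (-0.46 to 0.18). In normal culture they ran from -0.37 for Foxo4 (-0.99 to 0.24) to 0.27 for Sgk1 (-0.22 to 0.77). Pooled over both conditions they lay between -0.09 and 0.08. None of these 10 pooled intervals reached beyond -0.45 or 0.43, so that a 2-fold pooled effect lay outside them. Effects within these bounds were not told from 0. Pooling averages over both conditions and does not bound a difference between them. The 95% intervals of the interaction reached past 2-fold for Foxo4 (0.71, -0.16 to 1.59) and Sgk1 (-0.38, -1.08 to 0.32), both near background.

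**Figure D5:**
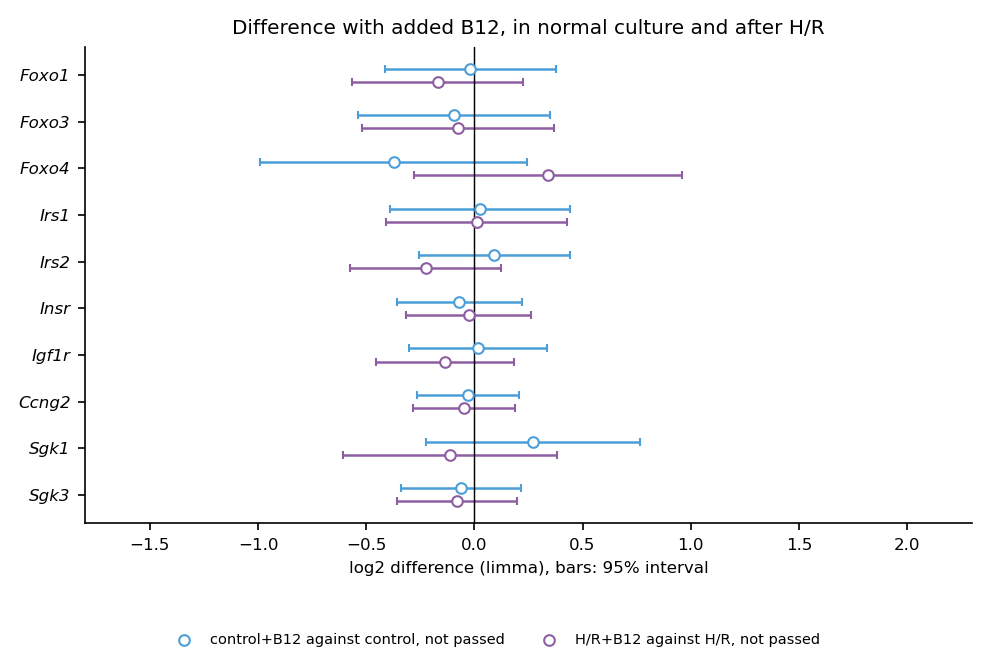
Log2 difference with added B12 (horizontal axis) for the 10 genes, in normal culture (blue) and in H/R cells (purple), from limma with 95% intervals. Open points did not pass the adjusted threshold of 0.05, and all 20 intervals span 0.

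Over the 4 groups the order of the levels was the same in kind for the genes that changed. Foxo1, Foxo3, Irs1 and Igf1r had their mean of control and control+B12 side by side at the bottom and H/R and H/R+B12 at the top, and Irs2 and Sgk3 had the reverse. Neighbours in these orders that share the H/R state overlapped in every one of the 6 genes. For Insr and Ccng2 all 4 group means lay within their spread, from 12.89 to 13.00 and from 15.69 to 15.75.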

How the data were processed

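RNA of 16 samples was labelled with biotin and hybridised to Affymetrix arrays. The deposited values are log2 signals per probe set, which the authors made with Affymetrix Expression Console, RMA and the Transcriptome Analysis Console, per the submitters' processing notes, and whose release numbers were not given there. RMA shares a normalization across arrays, which can hide a shift of most genes. Of 28846 features 6640 control features were left out, and 22206 probe sets were fitted with limma 3.58.1 in R 4.3.3 as 4 groups, all 16 arrays together, with p-values adjusted by Benjamini and Hochberg over the 22206. Changes after H/R, differences with B12, the interaction and the pooled B12 effect were tested at an adjusted threshold of 0.05. Gene names came from the platform annotation (19572 probe sets with 1 symbol, 2634 unnamed, 0 with several). Where a gene had several probe sets, the 1 with the highest mean stood for it. Sequences and coordinates came from RefSeq, GRCm38.p6.

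The 10 genes, the 7 lists and the tests were chosen with earlier results of these data known. Named are all 10 genes, up to 4 genes per list with the smallest p in H/R against control among those that passed, and the 2 nearest genes of each changed member. Akt1, Akt2, Pdpk1, Pik3r2, Rheb, Eif4ebp2, Prkaa2 and the 14-3-3 genes other than Ywhag and Ywhab fall outside this rule. They were named after their values were seen. The same holds for the fasting genes Pdk4, Pck1, Igfbp1 and G6pc and for the FoxO targets that fell without B12. Ratios between genes were tested by exact permutation in Python 3.11.15, with figures from matplotlib 3.10.9. The fit and the permutation were tested on simulated data. Other settings tried were the replicate number as a block, fits of the compared groups alone, array weights, eBayes with a trend and robust prior, the dimmest 25% left out, quantile normalization, centred arrays, 1 probe set per gene, another threshold, and each array left out. Pooling H/R over B12 was added after seeing the data. The deviations of samples with the same replicate number correlated at 0.08 at most, so the numbers were not taken as pairs. Replicate 1 did have the highest negative control median in each group (6.10 in control, 6.08 in control+B12, 6.23 in H/R and 6.17 in H/R+B12). A shared effect of the replicate number is thus not excluded.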

Additional observations from a re-analysis of the deposited data

Results flagged for a closer look

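Of 40 sets of 4 arrays (10 genes in 4 groups), 1 held an array far from the others, and chance gives about 1 in 20. It was Insr in H/R+B12, where replicate 1 read 12.80 against 12.92 to 12.94 in the other 3, a gap of 0.855 of the group's range, past Dixon's critical value for 4 samples. The group is a narrow one, and the Insr differences that use it did not pass, also when that array was left out.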

How the results depend on the processing

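In the 12 values that these statements rest on first, the count of genes past the test in each of 6 comparisons and the 6 ratios, the counts of 5 and 5 after H/R stayed within 4 and 6 under all alternatives but 1. Asking for a 2-fold change and p under 0.05 before adjustment gave 2 genes in H/R against control and 2 in H/R+B12 against control+B12, since most changes were under 2-fold. The B12 comparisons stayed at 0 under all alternatives. With the replicate block the counts were 5 and 5, and the 6 ratios passed an exact permutation within replicate numbers (adjusted p = 0.0117 to 0.0234). Same-numbered samples correlated at -0.07 to 0.08 in their deviations, and 7 of 16 samples correlated best with their own number. The block also ended the call of Gab1 (adjusted p = 0.0624). All 6 ratios kept their direction and passed after quantile normalization and without each array. Among the 10 genes no value past the test changed sign. Beside the arrays named above, Irs2 without B12 passed with an intensity trend (0.0148), array weights (0.0445) or the dimmest 25% left out (0.0423), and Igf1r with B12 passed with an intensity trend (0.0127) or the dimmest 25% left out (0.0419). Fitting only the groups compared ended the calls of Igfbp7 (0.0698 and 0.0507) and Gab1 (0.0948), and Igf1 did not pass in centred (0.0601) or quantile normalized arrays (0.0703). The causes were not tested. Signal near the negative controls limits Foxo4, Sgk1 and the fasting genes.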
